A study of Mus musculus with 20 samples.

Results

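The data described here are the transcript levels of 10 genes that set the G1 decision of the cell cycle, out of 25869 genes measured in 20 mouse RNA sequencing libraries. The genes were chosen by name as components of one pathway: the D-type cyclins Ccnd1, Ccnd2 and Ccnd3, their kinases Cdk4 and Cdk6, the kinase inhibitors Cdkn1b (p27), Cdkn2b (p15INK4B) and Cdkn2c (p18INK4C), the pocket protein gene Rb1, and Ccne1, the cyclin that acts after them. All 10 were found in the table by their Entrez identifiers. Levels are given as CPM, the reads of a gene scaled to the total reads of its library, and as CPM per kilobase of annotated exon wherever 2 genes are set against each other.

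The libraries came from 8 groups. Mouse embryonic fibroblasts (MEFs) were made from E14 embryos that were either wild-type (WT, 2 libraries) or dCas9a-SAM KI/+, a knock-in of a nuclease-dead Cas9 fused to transcriptional activators (CRISPR activation), which switches on a gene at its own promoter when given a single guide RNA (sgRNA). The dCas9a-SAM KI/+ MEFs, from 2 lines, carried no sgRNA (2 libraries), a non-targeting guide (sgNT, 2 libraries) or a guide that activates Bcl2 (sgBcl2, 4 libraries, 2 from each line, numbered in the labels without saying whether they differ in guide). The lymphoma cell lines were derived from tumours of lethally irradiated mice transplanted with foetal liver stem and progenitor cells of genotype Eμ-Myc/dCas9a-SAM KI/+ that had been transduced with sgBcl2. They comprised 4 IgM-positive lines (14 to 17, by library number) and 2 IgM-negative lines (18 and 19). Tumours 20 and 21 were the IgM-positive primary tumours of the mice that gave lines 14 and 15. All lines and tumours therefore carried both the Myc transgene, driven in B lineage cells by the immunoglobulin heavy chain enhancer, and sgBcl2, and no lymphoma with sgNT was available to set against them. The remaining group was a pair of preB cell acute lymphoblastic leukaemia lines (preB-ALL) driven by BCR-ABL1 (p190T/+), one named P190CreERLSLErg and the other P190RagCreErg, which were cultured with interleukin 7, prepared with another RNA kit and sequenced in another run.

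The libraries held 12474885 to 26678417 counted reads (median 23229458), the preB-ALL libraries being the shallowest. Bcl2, the targeted gene, was at 46.8 to 71.8 CPM in the sgBcl2 MEFs, 13.4 and 13.7 CPM in the sgNT MEFs, 99.4 to 165 CPM in the lymphoma lines, 235 and 244 CPM in the tumours and 20.8 and 22.04 CPM in preB-ALL. All 8 B lineage markers were above 1 CPM in each lymphoma line, tumour and preB-ALL library. Ighm, the IgM heavy chain gene, was also at 1178 and 1441 CPM in the IgM-negative lines, within reach of the IgM-positive lines (1462 to 2711 CPM). WT MEF 2 stood apart: 5527 of 16483 genes differed at least 2-fold between it and WT MEF 1, against 420 between the 2 MEF libraries without sgRNA, and its 12 fibroblast markers summed to 9814 CPM where the other 9 MEF libraries had 20590 to 28490. The same library had 209 CPM of 8 macrophage and myeloid markers, compared with 4.86 to 8.48 CPM in the other MEFs. The preB-ALL libraries carried 5707 and 2448 CPM of the fibroblast markers (9 and 10 of the 12 above 1 CPM, Dcn at 0), against 6.25 to 89.6 CPM in the lymphoma lines, and had none of the mitochondrial reads that made up 5.30 to 9.04% of the lymphoma and tumour libraries. Batch, kit, culture and genotype of preB-ALL cannot be told apart. In such bulk RNA, fewer cells of a kind and less RNA per cell cannot be told apart either.

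D-type cyclins are made when growth factors or cytokines signal to the cell, and they bind and switch on the kinases CDK4 and CDK6. These kinases phosphorylate the RB protein, which otherwise holds E2F transcription factors inactive. Once E2F is freed, CCNE1 and the genes of DNA replication are transcribed and the cell enters S phase. INK4 proteins such as p15 and p18 bind CDK4 and CDK6 directly, whereas p27 mainly restrains the kinase bound by cyclin E. Precursor B cells rely on cyclin D3 and also use cyclin D2, and fibroblasts use all of the D cyclins.

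The annotation (GRCm38) places Ccnd1 at chr7:144929931-144939831, Ccnd2 at chr6:127125162-127152188, Ccnd3 at chr17:47505051-47599689, Cdk4 at chr10:127063535-127067288, Cdk6 at chr5:3341004-3531008 and Rb1 at chr14:73192858-73325951. Of the inhibitors, Cdkn2b lies at chr4:89306289-89311032, Cdkn2c at chr4:109660876-109666756 and Cdkn1b at chr6:134920401-134925525, and Ccne1 lies at chr7:38097984-38107490. The library kit did not mark the strand, and some exons are shared with a gene on the opposite strand: 818 bases of Ccnd1 with Lto1, 361 bases of Ccnd3 with Bysl, 641 bases of Cdk4 with Tspan31, 105 bases of Rb1 with Rcbtb2, and 372 bases of Ccnd2 and 110 bases of Cdk6 with the antisense genes Gm43126 and Gm17590. Reads in those stretches could belong to either gene.

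Because the lymphomas carry a Myc transgene, the promoters of the 10 genes were searched for the Myc-binding E-box, CACGTG, which reads the same on both strands. RefSeq windows of 300 bases, from 250 before to 50 after an annotated start (GRCm38.p6), were found for 7 of the 10 genes, 9 windows in all. The Cdk4 window held 4 E-boxes, starting at positions -172, -118, -98 and -11 from the start, which is a number reached by 8 of the 32851 mouse promoter windows (0.0244%). The Cdk6 window held 1, at position -220, and 1 of the 2 Cdkn2c windows held 1, at position 35 (chr4:109665323-109665622, minus strand). At least 1 E-box was present in 7.15% of all windows. Neither spelling of an E2F site searched on both strands (TTTGGCGC, in 0.514% of windows, and TTTCCCGC, in 1.07%) occurred in any of the 9 windows. A match of letters is a description of the window and says nothing about binding. The windows of both kinases are shown because their transcripts are compared below, 5′ to 3′ on the plus strand, with the E-boxes in capitals. The Cdk4 window is chr10:127063285-127063584 and the Cdk6 window is chr5:3343643-3343942.
Cdk4: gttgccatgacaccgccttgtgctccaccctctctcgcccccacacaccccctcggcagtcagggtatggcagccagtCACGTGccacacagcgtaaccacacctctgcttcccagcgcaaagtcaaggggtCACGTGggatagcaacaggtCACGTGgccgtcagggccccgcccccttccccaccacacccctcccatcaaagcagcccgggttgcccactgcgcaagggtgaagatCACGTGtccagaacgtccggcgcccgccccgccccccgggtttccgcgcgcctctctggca
Cdk6: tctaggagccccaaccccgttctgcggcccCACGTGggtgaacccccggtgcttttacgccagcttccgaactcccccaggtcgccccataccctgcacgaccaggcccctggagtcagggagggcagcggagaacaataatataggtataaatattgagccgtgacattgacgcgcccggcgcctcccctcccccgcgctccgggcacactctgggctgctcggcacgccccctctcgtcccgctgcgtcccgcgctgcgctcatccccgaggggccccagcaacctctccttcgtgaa

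The balance of the D cyclins differed between cell types. MEFs expressed all 3 D cyclins, lymphoma lines had little Ccnd2 and preB-ALL was dominated by Ccnd3. Ccnd1, the D cyclin best known from fibroblasts and epithelia, was at 996 and 1015 CPM in the MEFs without sgRNA and at 834 and 820.4 CPM in the sgNT MEFs. It was at 1050.3 and 1145 CPM in the sgBcl2 libraries of line 1 and at 889 and 788 CPM in those of line 2. The WT MEFs were far apart, with 1481 CPM in WT 1 and 189 CPM in WT 2. Among the MEFs, only WT 2 fell within the range of the lymphoma lines. The IgM-positive lymphoma lines 14, 15, 16 and 17 had 179.4, 146, 268 and 217 CPM of Ccnd1. The IgM-negative lines 18 and 19 had 252 and 323 CPM, tumours 20 and 21 had 139.9 and 174 CPM, and the preB-ALL libraries had 139 and 53.5 CPM. All lymphoma lines were above both preB-ALL libraries, line 15 by a small margin over the first of them, and below the 8 dCas9a-SAM KI/+ MEF libraries.

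Ccnd2, the D cyclin induced by cytokine and B cell receptor signalling, had the widest range of the 3, 3440-fold between the lowest and the highest of the 20 libraries. It was at 1409.5 and 1393 CPM in the MEFs without sgRNA, 1114 and 1044 CPM with sgNT, and 1478 and 351 CPM in the WT MEFs. The sgBcl2 MEFs had 1212, 1262, 1137 and 1067 CPM. In lines 14, 15, 16 and 17 it was at 17.1, 1.12, 102 and 24.996 CPM. The IgM-negative lines were at the bottom of the series together with line 15, with 0.430 CPM in line 18 and 2.54 CPM in line 19. Tumours 20 and 21 had 10.0 and 41.7 CPM, whereas preB-ALL had 409.6 and 319 CPM. Across the 6 lymphoma lines Ccnd2 spanned 237-fold, compared with 2.21-fold for Ccnd1 and 5.37-fold for Ccnd3, and it spanned 1.35-fold across the 8 dCas9a-SAM KI/+ MEF libraries.

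Ccnd3, the D cyclin on which expanding precursor B cells depend, ran higher in preB-ALL than in MEFs, unlike Ccnd2. Its level was 880.5 and 1184 CPM in preB-ALL, above every other library. MEFs without sgRNA had 196 and 201.9 CPM, sgNT MEFs 274 and 254 CPM, sgBcl2 MEFs 207, 215, 215 and 197 CPM, and WT MEFs 227 and 131 CPM. Lines 14, 15, 16 and 17 had 171, 342, 84.6 and 100.3 CPM. Lines 18 and 19 had the lowest levels of the series, 68.1 and 63.6 CPM, and tumours 20 and 21 had 183 and 88.7 CPM. Line 15, which had the least Ccnd2 of the IgM-positive lines, had the most Ccnd3 of all lines.

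**Figure D1:**
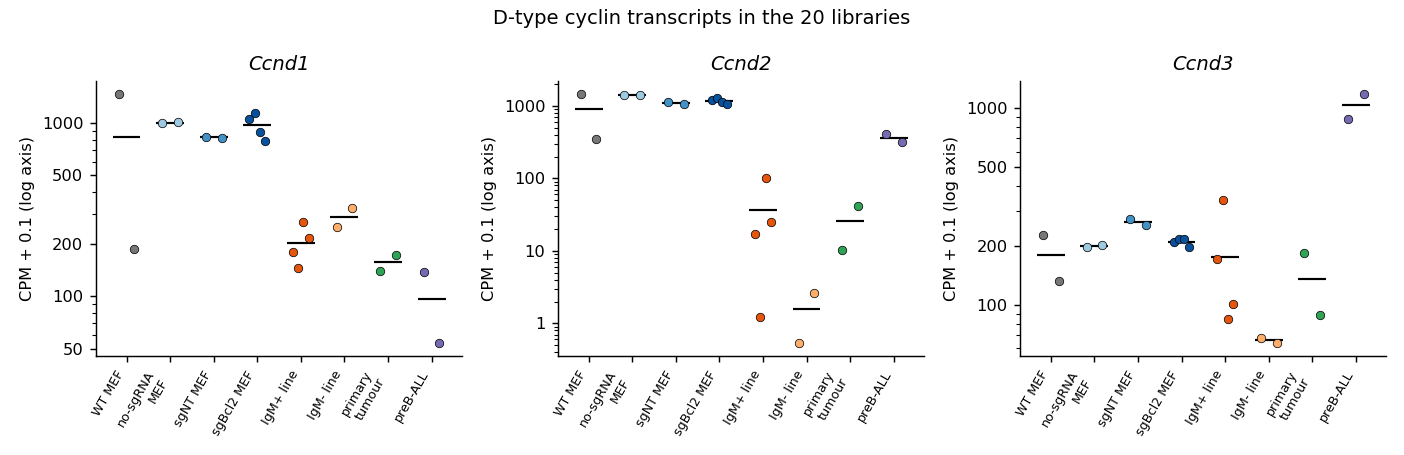
CPM + 0.1 of Ccnd1, Ccnd2 and Ccnd3 on a log axis, 1 panel per gene, in the 8 groups (each point is 1 library, each horizontal bar the group mean). Ccnd2 falls from 1044 CPM or more in the dCas9a-SAM KI/+ MEFs to between 0.430 and 102 CPM in the lymphoma lines, and Ccnd3 is highest in the 2 preB-ALL libraries.

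To compare the 3 cyclins with each other, levels were divided by exon length (3.74 kb for Ccnd1, 6.711 kb for Ccnd2 and 2.447 kb for Ccnd3) and expressed as shares of their sum. In the 8 dCas9a-SAM KI/+ MEF libraries Ccnd1 made up 44.5 to 52.6% of D cyclin transcript per kb, Ccnd2 32.3 to 37.7% and Ccnd3 14.4 to 22.3%. WT MEF 2 differed from these, with 32.3% Ccnd1, 33.4% Ccnd2 and 34.3% Ccnd3. In the lymphoma lines Ccnd2 had 12.5% in line 16 and at most 3.62% in the other 5 lines. The rest was split between Ccnd1 and Ccnd3 in proportions that varied from line to line: Ccnd3 held 78.0% in line 15 and 58.0% in line 14, whereas Ccnd1 held 76.6% in line 19, 70.7% in line 18, 59.1% in line 16 and 56.5% in line 17. Ccnd1 was thus the most abundant D cyclin transcript per kb in 4 of the 6 lines, both IgM-negative lines among them.

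Tumour 20 had 65.8% Ccnd3 and tumour 21 had 52.3% Ccnd1. Ccnd3 made up 78.6 and 88.7% of the D cyclin transcript in preB-ALL, with 13.3 and 8.72% Ccnd2. The summed level also differed. It was 450.1 to 582 CPM per kb in the dCas9a-SAM KI/+ MEFs and 458 and 546 CPM per kb in preB-ALL, but 95.3 to 178.9 CPM per kb in the lymphoma lines and 114 and 89.0 CPM per kb in the tumours. The WT MEFs had 709 and 156 CPM per kb, WT 2 lying within the range of the lymphoma lines. The sum of D cyclin transcript in every lymphoma line and tumour was therefore below that of both preB-ALL libraries.

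**Figure D2:**
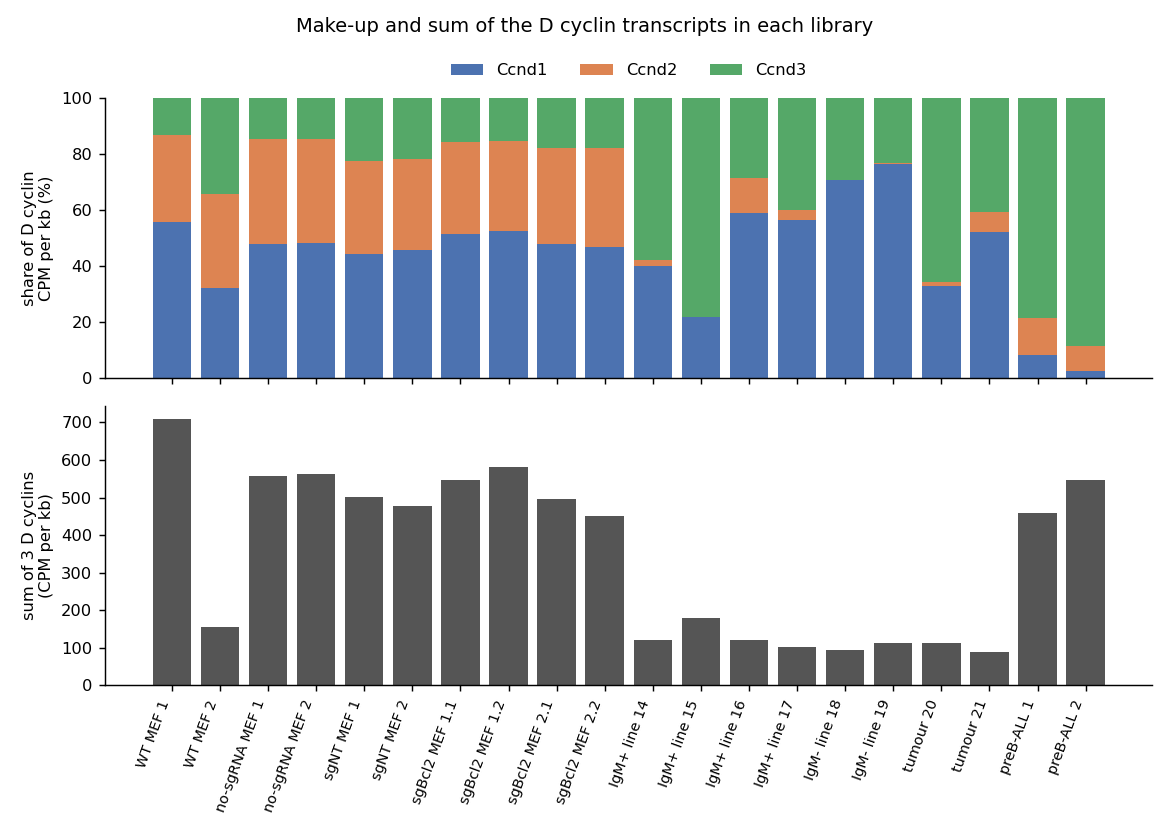
Share of each D cyclin in the summed CPM per kb (stacked bars, %) and the sum itself (CPM per kb), for each of the 20 libraries. The Ccnd2 share is 12.5% or lower in every lymphoma line and tumour, and the sum is lower in these libraries than in preB-ALL.

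Cdk4 and Cdk6 encode the interchangeable catalytic partners of the D cyclins. Cdk4 was one of the steadiest genes examined. The MEFs without sgRNA had 318 and 322 CPM, the sgNT MEFs 332 and 302 CPM, the sgBcl2 MEFs 331, 349.6, 338 and 314 CPM, and the WT pair 314 and 504 CPM. The IgM-positive lines 14 to 17 had 306, 409, 476 and 695 CPM, lines 18 and 19 had 458 and 514 CPM, tumours 20 and 21 had 369.5 and 304 CPM, and preB-ALL had 611 and 498 CPM. The whole series spanned 2.30-fold, and all but 1 of the lymphoma lines, line 14, were above the dCas9a-SAM KI/+ MEFs.

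Cdk6 was less abundant and more variable, spanning 14.8-fold. It was at 14.7 and 12.0 CPM in the MEFs without sgRNA, 13.1 and 16.3 CPM with sgNT, 20.3, 17.5, 16.2 and 17.0 CPM with sgBcl2 and 16.2 and 14.4 CPM in WT MEFs. In order, lines 14 to 17 had 22.8, 36.3, 28.6 and 52.1 CPM and lines 18 and 19 had 34.0 and 42.0 CPM. The tumours had 15.9 and 9.43 CPM, and the preB-ALL libraries had 9.62 and 3.53 CPM. All 6 lymphoma lines were above all other libraries, the tumours from which lines 14 and 15 arose included.

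Per kb of exon (2.053 kb for Cdk4 and 11.525 kb for Cdk6), Cdk4 exceeded Cdk6 in every library. The ratio differed between groups, some of which overlapped. It was 63.2 to 93.3 in the lymphoma lines, 91.8 to 150.3 in the dCas9a-SAM KI/+ MEFs and 109 and 196 in the WT MEFs. The tumours had ratios of 130 and 181, and preB-ALL had 356 and 793. Within the lymphoma lines Cdk4 spanned 2.28-fold and Cdk6 2.29-fold while their ratio stayed within that narrow band, and line 17 was the highest for both kinases and line 14 the lowest. This is a description over 6 lines that share a genotype. Both preB-ALL ratios were above those of all other libraries.

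**Figure D3:**
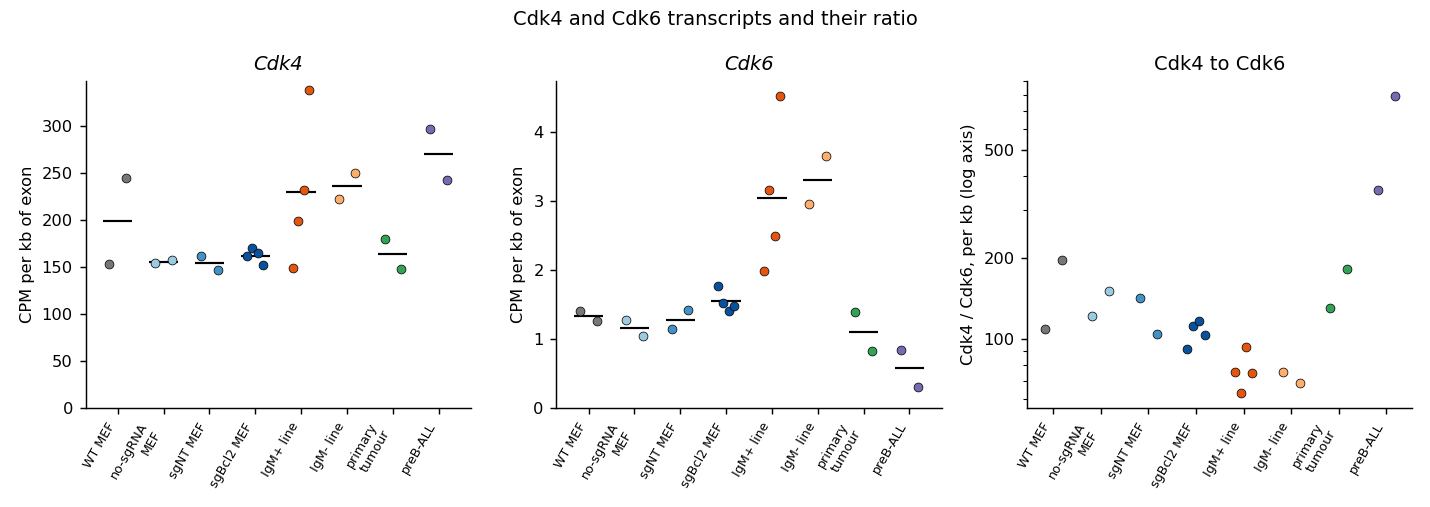
Cdk4 and Cdk6 in CPM per kb (linear axes from 0) and their ratio (log axis) in the 8 groups, with each point a library and, for the levels, each bar a group mean. The 6 lymphoma lines have the most Cdk6 and ratios of 63.2 to 93.3, whereas the preB-ALL ratios are 356 and 793.

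The inhibitors each showed a different pattern. Cdkn2b, the INK4 inhibitor induced by TGFβ, was abundant in fibroblasts and all but missing from B lineage cells. MEFs without sgRNA had 78.8 CPM in both libraries, sgNT MEFs 127 and 111 CPM, sgBcl2 MEFs 103, 121, 123 and 96.2 CPM, and WT MEFs 156 and 58.5 CPM. Line 15 had 2.25 CPM (60 reads, 95% exact Poisson interval 1.72 to 2.90 CPM, covering counting error only), and the other 5 lymphoma lines had 0.0406 to 0.114 CPM, which is 1 to 3 reads each. Tumour 20 had 1.18 CPM (27 reads, interval 0.780 to 1.72 CPM), tumour 21 had 0.0499 CPM (1 read), and preB-ALL had 0.534 and 0.962 CPM (8 and 12 reads). At these depths 3 reads correspond to 0.113 to 0.241 CPM, so that the 5 low lines and tumour 21 were at or below this floor.

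Cdkn2c, the INK4 inhibitor p18 that limits expansion of lymphoid cells, ran opposite to Cdkn2b. It was highest in preB-ALL at 104 and 96.3 CPM, followed by line 17 with 47.9 CPM and tumours 20 and 21 with 45.2 and 35.4 CPM. Lines 14, 15 and 16 had 16.6, 33.4 and 25.6 CPM, and the IgM-negative lines were far apart, with 3.67 CPM in line 18 and 26.1 CPM in line 19. Line 18 was thus at the level of WT MEF 1 (3.87 CPM) and below the dCas9a-SAM KI/+ MEFs, which had 6.21 to 9.26 CPM. The lowest value of the series was 0.380 CPM in WT MEF 2.

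Cdkn1b (p27) varied little between lines. It was at 40.4 and 43.1 CPM in MEFs without sgRNA, 31.9 CPM in both sgNT libraries, 38.1, 35.2, 45.4 and 42.3 CPM with sgBcl2 and 20.5 and 30.9 CPM in WT MEFs. Lines 14, 15, 16 and 17 had 62.2, 42.7, 49.1 and 49.4 CPM, lines 18 and 19 had 46.2 and 46.0 CPM, and tumours 20 and 21 had 54.3 and 86.4 CPM. The preB-ALL libraries had 85.9 and 136 CPM, above every lymphoma line, and tumour 21 reached the lower of them. The order of the inhibitors per kb therefore changed with the cell type: Cdkn2b had the most transcript per kb in all MEFs, whereas in preB-ALL Cdkn2c and then Cdkn1b did.

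Rb1, which encodes the protein that CDK4 and CDK6 phosphorylate, was at 21.7 to 29.6 CPM in the 8 dCas9a-SAM KI/+ MEF libraries and at 26.4 and 34.7 CPM in WT MEFs. Lines 14, 15, 16 and 17 had 97.0, 79.9, 33.7 and 52.8 CPM, lines 18 and 19 had 45.9 and 66.4 CPM, tumours 20 and 21 had 44.2 and 70.3 CPM, and preB-ALL had 104 and 108 CPM. Both preB-ALL libraries were above all lymphoma lines, although line 14 came close. Every lymphoma line was above the dCas9a-SAM KI/+ MEFs, line 16 by the least.

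Ccne1, the cyclin that carries RB phosphorylation forward with CDK2, was at 133 CPM in tumour 20, the highest level of the series, and at 78.3 CPM in tumour 21. Lines 14, 15, 16 and 17 had 43.5, 81.7, 45.6 and 60.3 CPM, and lines 18 and 19 had 32.3 and 26.5 CPM. The preB-ALL libraries, with 44.6 and 34.2 CPM, and the MEFs, with 26.6 to 43.2 CPM in the dCas9a-SAM KI/+ lines and 32.8 and 16.1 CPM in WT, overlapped with the lymphoma lines. Both IgM-negative lines were below all IgM-positive lines.

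**Figure D4:**
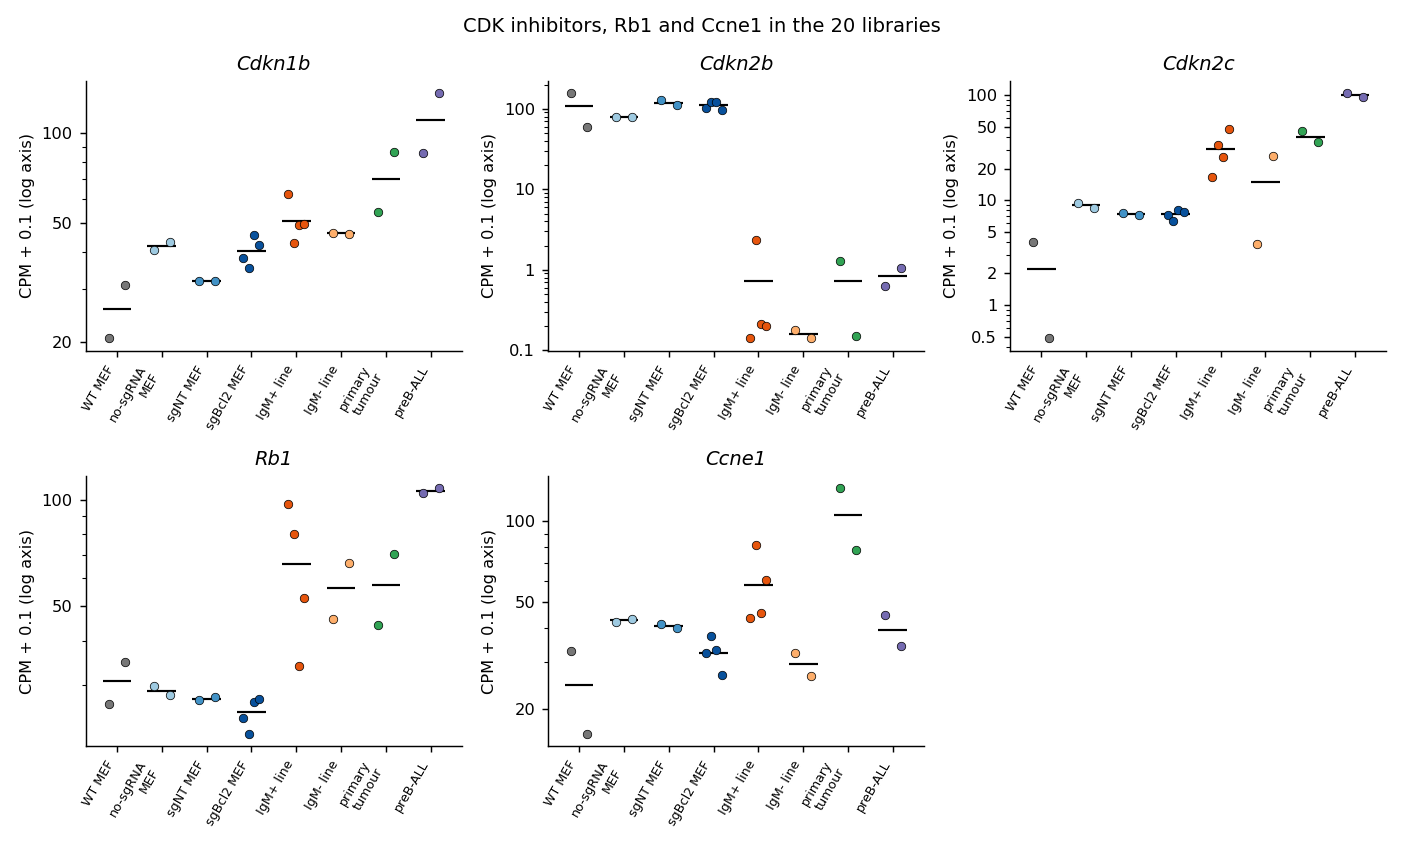
CPM + 0.1 of Cdkn1b, Cdkn2b, Cdkn2c, Rb1 and Ccne1 on log axes in the 8 groups, with each point a library and each bar a group mean. Cdkn2b separates MEFs (58.5 to 156 CPM) from all B lineage libraries (at most 2.25 CPM), and Cdkn2c is highest in preB-ALL.

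The comparison of the Eμ-Myc lymphoma lines with BCR-ABL1 preB-ALL asks how malignant B lineage cells with different drivers differ in this pathway. Differences were tested with limma on log2(CPM + 0.1) after TMM scaling, with Benjamini-Hochberg adjustment over all genes tested, and the fold changes below are on that scale. Of the 10 genes, 5 passed an adjusted p of 0.05, Cdk6 and Ccnd1 being higher in the lymphoma lines and 3 genes lower. The background was high, since 43.4% of the 13961 genes tested passed (20.9% higher and 22.5% lower). Cdk6 had the largest rise, with a log2 difference of 2.91 (SE 0.42, adjusted p = 0.000891 by limma), 7.52-fold, and no overlap between the groups. Ccnd1 was also higher, by 1.74 (SE 0.42, adjusted p = 0.0108). The fibroblast markers above, which were present in preB-ALL and nearly lacking in the lymphoma lines, were thus lower in the lines while Ccnd1 and Cdk6 were higher, and their part in these values was not tested.

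The genes lower in the lymphoma lines were the other D cyclins and p27. Ccnd3 differed by -2.80 (SE 0.57, adjusted p = 0.00465), Ccnd2 by -5.44 (SE 1.84, adjusted p = 0.0420) and Cdkn1b by -0.78 (SE 0.20, adjusted p = 0.0131). The fibroblast markers were also lower in the lymphoma lines (6.25 to 89.6 CPM, against 5707 and 2448 CPM in preB-ALL), and their part in these 3 differences was not tested. All 5 called genes had groups that did not overlap, a property whose share over all genes was not counted. Cdkn2c (-1.95, SE 0.80, adjusted p = 0.0803) and Rb1 (-0.48, SE 0.35, adjusted p = 0.288) were lower in each lymphoma line than in preB-ALL but did not pass. Ccne1 (0.57, adjusted p = 0.245), Cdk4 (0.11, adjusted p = 0.783) and Cdkn2b (-1.35, adjusted p = 0.309) did not pass and overlapped.

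Only 2 preB-ALL libraries carry the control arm, and the calls other than Cdk6 depended on them. Where either is left out, the lone library is assumed to vary like the lymphoma lines. Without preB-ALL 2, Cdk6 alone passed (2.11, adjusted p = 0.0138), whereas Ccnd1 was at 0.95 (adjusted p = 0.185), Ccnd3 at -2.69 (adjusted p = 0.0679), Ccnd2 at -5.72 (adjusted p = 0.199) and Cdkn1b at -0.55 (adjusted p = 0.119). Cdk6 passed under all 19 alternatives, with log2 differences of 2.11 to 3.63, and Ccnd2 passed under 10 of them. Ccnd2 also lost its call without line 15 (adjusted p = 0.0617), line 19 (adjusted p = 0.0709) or preB-ALL 1 (adjusted p = 0.190), with both tumours replacing lines 14 and 15 (adjusted p = 0.0831) and at a threshold of 0.01. Cdkn1b did not pass either with the tumours in this place (adjusted p = 0.0934). The size of the Ccnd2 difference depended on the method, being -3.63 with DESeq2, which gave no adjusted p, -3.52 with edgeR (adjusted p = 0.0917) and -5.54 with limma-voom (adjusted p = 0.00954). Cdkn2c passed with DESeq2, without scaling and when line 18, the line with least of it, was left out, and Cdkn2b passed as lower without line 15 (adjusted p = 0.00311). With the 4 IgM-positive lines alone, Ccnd1, Ccnd3, Cdk6, Cdkn1b and Cdkn2c passed and Ccnd2 did not (adjusted p = 0.0790).

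Lymphoma lines and sgBcl2 MEFs both carry the activator and a Bcl2 guide, which the labels do not name further, and differ in cell type, Myc transgene and culture, and 81.3% of 14620 genes differed between them (36.3% higher and 45.0% lower in the lymphoma lines). Of the 10 genes, 6 passed, 2 higher and 4 lower. Cdkn2b was lower by 8.84 on the log2 scale (difference -8.84, SE 0.70, adjusted p = 5.79e-07 by limma), a value that depends on the pseudocount because 5 lines were at or below the floor of 3 reads. Ccnd2 differed by -7.66 (SE 1.32, adjusted p = 0.000291) and Ccnd1 by -2.28 (SE 0.23, adjusted p = 4.14e-06). The Ccnd2 difference ranged from -8.45 (without line 16) to -5.73 (edgeR) over the alternatives. The median difference of all genes tested was -0.27 in this comparison, against which these values can be read. Ccnd3 differed by -1.05 (SE 0.40, adjusted p = 0.0321) with overlapping groups, and it passed under 8 of 19 alternatives, losing its call without any 1 of lines 16 to 19 or of the 4 sgBcl2 libraries. Rb1 was higher by 1.07 (SE 0.25, adjusted p = 0.00250) and Cdk6 by 0.79 (SE 0.21, adjusted p = 0.00453), both without overlap.

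The other 4 genes did not pass in this comparison. Cdkn2c differed by 1.30 (SE 0.58, adjusted p = 0.0595), Cdk4 by 0.30 (adjusted p = 0.173, passing without line 14), Cdkn1b by 0.11 (adjusted p = 0.413) and Ccne1 by 0.31 (adjusted p = 0.289). Cdkn2c passed with DESeq2 (1.44, adjusted p = 0.00676), with edgeR (1.63, adjusted p = 0.0162) and without line 18 (1.77, adjusted p = 0.000162). The sign of Cdkn1b depended on the scaling, being -0.08 with DESeq2 and with RLE size factors. Without any scaling factor, Cdk4, Cdkn1b and Cdkn2c passed as higher and Ccnd3 did not pass.

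**Figure D5:**
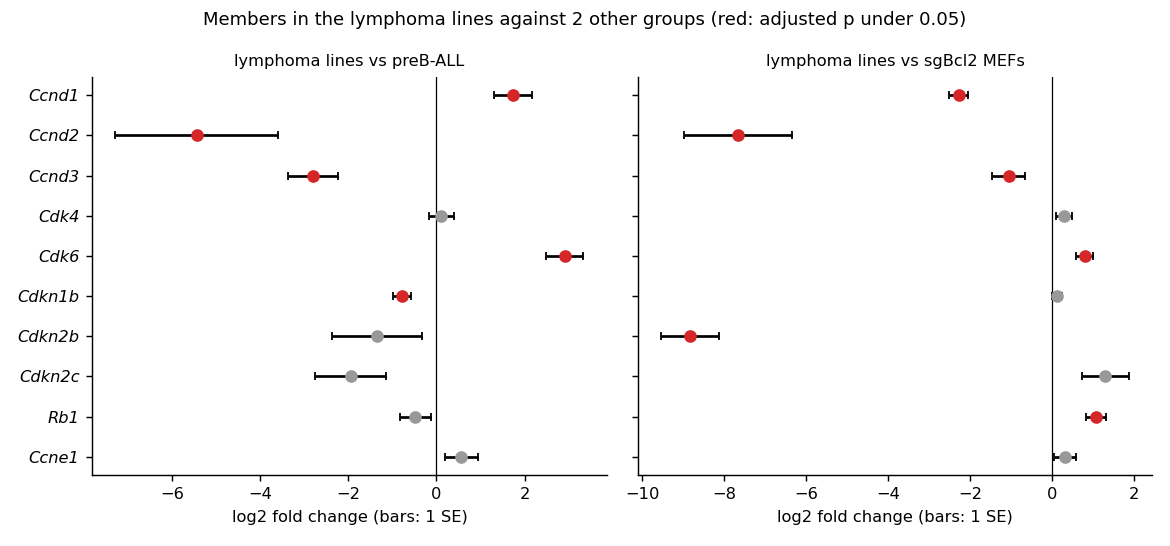
Log2 difference ± 1 SE of the 10 genes in each comparison (limma on log2(CPM + 0.1)), with red points passing an adjusted p of 0.05. Cdk6 is higher in lymphoma lines than in both preB-ALL and sgBcl2 MEFs, and Ccnd2 and Ccnd3 are lower than in either.

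Activation of Bcl2 in MEFs was compared with the non-targeting guide to ask whether the guide alters other genes. Of the 10 genes, 2 passed, 1 in each direction, against 10.8% of 14676 genes tested (6.61% higher and 4.24% lower). Ccnd3 was lower with sgBcl2 (-0.25, SE 0.06, adjusted p = 0.0320 by limma), its 4 libraries at 197 to 215 CPM against 274 and 254 CPM with sgNT. Cdkn1b was higher (0.42, SE 0.11, adjusted p = 0.0432), at 35.2 to 45.4 CPM against 31.9 CPM. Neither pair of groups overlapped, but nor did that of Ccne1, which was not called (26.6 to 37.3 CPM against 41.3 and 40.1 CPM). The share of all genes without overlap was not counted. The other 8 genes had differences of -0.25 to 0.37 with adjusted p of 0.109 to 0.924. Both calls stood when the MEF line number was fitted as a block, and when the 2 sgBcl2 libraries of each line were summed, but neither passed without sgNT 1 (adjusted p = 0.218 for Ccnd3 and 0.242 for Cdkn1b) or without sgNT 2 (0.130 and 0.162), nor without the first sgBcl2 library of line 1 (0.0788 and 0.0675). Ccnd3 also lost its call without the second sgBcl2 library of line 1 (adjusted p = 0.0563), and Cdkn1b without either sgBcl2 library of line 2 (adjusted p = 0.0685 and 0.0577). With all 10 MEF libraries in the fit neither passed (0.763 and 0.308), and Cdkn1b did not with limma-voom (adjusted p = 0.0527) or without scaling (adjusted p = 0.0737). The sgBcl2 values of both genes lay near those of the MEFs that had no sgRNA.

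The sgNT MEFs themselves differed from MEFs without sgRNA, and 41.1% of 14655 genes tested passed in this comparison (20.3% higher and 20.9% lower). Of the 10 genes, 5 did so, 2 higher and 3 lower. Cdkn2b (0.57, SE 0.07, adjusted p = 0.000748 by limma) and Ccnd3 (0.39, SE 0.07, adjusted p = 0.00274) were higher with sgNT. Cdkn1b (-0.40, SE 0.08, adjusted p = 0.00593), Ccnd2 (-0.39, SE 0.09, adjusted p = 0.0108) and Ccnd1 (-0.30, SE 0.08, adjusted p = 0.0240) were lower. None of the 5 had overlapping groups, but neither had Cdkn2c, Rb1 and Ccne1, which were not called. The share of all genes without overlap was not counted. With the MEF line number as a block, Ccnd1 no longer passed (adjusted p = 0.0666) and the other 4 did. Ccnd1 also lost its call without any 1 of the 4 libraries (adjusted p = 0.0511 to 0.160), and Ccnd2 without either library that had no sgRNA (adjusted p = 0.0757 and 0.0932). With all 10 MEF libraries in the fit none of the 5 passed (adjusted p = 0.214 to 0.871). Both this comparison and the preceding one use the same 2 sgNT libraries, in which Ccnd3 was higher and Cdkn1b lower than in either other group.

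The dCas9a-SAM KI/+ MEFs without sgRNA and with sgNT were each set against WT MEFs, to ask whether the knock-in alters the transcriptome by itself. No gene passed in either comparison by limma (0 of 14546 and 0 of 14560), with 1081 and 589 genes at an unadjusted p under 0.05, 188 and 83 genes called by DESeq2 and 0 in both by edgeR. With all 10 MEF libraries in the limma fit, 717 and 68 genes passed, and of the 10 genes Cdkn1b passed in the first. The 2 WT libraries lay on opposite sides of the knock-in libraries for several of the 10 genes. Relative to WT 2 alone, Ccnd1 was higher in the MEFs without sgRNA by 2.59 and Cdkn2b by 0.60, whereas relative to WT 1 alone Ccnd1 differed by -0.61 and Cdkn2b by -1.04. Cdkn2c was higher than in either WT library (4.36 relative to WT 2, 1.11 relative to WT 1) and so was Cdkn1b (0.60 and 0.97). Without WT 1, 8581 of 15566 genes passed for no sgRNA, 8 of the 10 among them, and 8424 of 15768 for sgNT, 7 of the 10 among them. Without WT 2 these were 4712 of 14806 genes with 6 of the 10, and 1644 of 14702 genes with 4 of the 10. These single-library values rest on the assumption that a lone WT library varies like the others.

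Among the lymphoma lines, IgM-negative and IgM-positive lines were compared. None of the 9 genes tested passed (Cdkn2b was below the filter on low counts), where 0.597% of 12386 genes did, or 24 genes by edgeR and 749 by DESeq2. Of the 9 genes, 1 had an unadjusted p under 0.05. Ccne1 (-0.87, adjusted p = 0.311 by limma) and Ccnd3 (-1.12, adjusted p = 0.492) were lower in both IgM-negative lines than in all 4 IgM-positive lines. The share of all genes separated in this way was not counted. Ccnd2 was lower by 3.64 on the log2 scale (difference -3.64, adjusted p = 0.498) with overlap, line 15 lying between the 2 IgM-negative lines, and it passed with DESeq2 (adjusted p = 0.0112).

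Primary tumours 20 and 21 were compared with lines 14 and 15, which came from the same mice. None of the 10 genes passed, where 0.330% of 12719 genes did, and 1 had an unadjusted p under 0.05. Of all genes, edgeR called 0 and DESeq2 called 2100. Cdk6 was lower in both tumours than in both lines (-1.27, SE 0.38, adjusted p = 0.139 by limma), as was Rb1 (-0.71, adjusted p = 0.238), and Cdkn2c was higher (0.71, adjusted p = 0.308). How large a share of all genes was separated in this way was not counted. Among the DESeq2 calls was Cdk6 (adjusted p = 0.0343). The labels conflict on which tumour belongs to which line: titles join tumour 20 with line 15 and tumour 21 with line 14, and descriptions the reverse. With the pairing of the titles as a block, 3600 of 12719 genes passed, 5 of the 10 among them, namely Ccnd2 (2.12, adjusted p = 0.0343), Ccnd3 (-0.97, adjusted p = 0.01003), Ccne1 (0.72, adjusted p = 0.0183), Cdk6 (-1.27, adjusted p = 0.0157) and Rb1 (-0.71, adjusted p = 0.0270), whereas with that of the descriptions 0 genes passed. The tumours also held 221 and 26.4 CPM of the fibroblast markers and 42.1 and 33.1 CPM of the macrophage and myeloid markers, against 6.25 and 89.6 and 13.1 and 6.11 CPM in lines 14 and 15, and the part of other cells in these differences was not tested.

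Balances between members were tested as log2 ratios per kb with exact two-sided permutation tests over libraries, 12 tests in all, adjusted together. The ratio of Ccnd3 to Ccnd2 was 6.61 higher on the log2 scale in the lymphoma lines than in the sgBcl2 MEFs (exact permutation p = 0.00952, the smallest possible with 210 splits, adjusted p = 0.114), and 2.63 higher than in preB-ALL (p = 0.286, adjusted p = 0.343, exact permutation test). The ratio of Ccnd1 to Ccnd2 plus Ccnd3 was 4.60 higher in the lymphoma lines than in preB-ALL and the ratio of Cdk4 to Cdk6 was 2.81 lower (difference -2.81). Both had the smallest exact permutation p that 28 splits allow, 0.0714 (adjusted p = 0.200), so this design cannot pass 0.05. The ratio of Cdk4 to Cdk6 differed by -0.50 from the sgBcl2 MEFs (exact permutation p = 0.0190, adjusted p = 0.114). The ratio of Cdkn2c to Cdkn1b differed by -1.17 from preB-ALL and by 1.19 from the sgBcl2 MEFs (exact permutation p = 0.214 and 0.105, adjusted p = 0.286 and 0.200). The ratios of sgBcl2 against sgNT MEFs had 15 splits and could not go below an exact permutation p of 0.133, so they could not pass either. None of the 12 passed after adjustment, which included the tests that could not pass.

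The rest of the pathway was followed through 32 further G1/S genes (E2F factors and their partners, other inhibitors, CDK2 activators, DREAM complex and cyclin turnover genes) and 22 E2F target genes of DNA replication. In lymphoma lines against preB-ALL, 17 of the 32 G1/S genes passed, 13 higher and 4 lower, where 43.4% of all genes did, with a median log2 difference of 0.36 where that of all genes was -0.07. The higher genes with the smallest adjusted p were Tfdp1, a DNA-binding partner of E2F (1.52, adjusted p = 0.000517 by limma), E2f4, a repressive E2F (0.97, adjusted p = 0.00142), and E2f1, an activating one (1.21, adjusted p = 0.00145). The lower genes were led by Cdkn1a, the p53-induced inhibitor p21 (-3.97, adjusted p = 0.00551), Lin37, a DREAM subunit (-1.04, adjusted p = 0.0116), and Fbxo4, which is linked to turnover of cyclin D1 (-1.56, adjusted p = 0.0209). The fourth was Cdkn2d, the INK4 inhibitor p19 (-1.77, adjusted p = 0.0275).

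Of the E2F targets, 11 of 22 passed in the same comparison and all of these were higher in the lymphoma lines, where 20.9% of all genes were (median of the list 0.65). They included Ung, a uracil DNA glycosylase (1.35, adjusted p = 0.000620 by limma), Mybl2, a cell cycle transcription factor (1.59, adjusted p = 0.000830), and Pcna, the replication clamp (0.71, adjusted p = 0.00424). Across the alternatives 2 to 12 of the 22 passed, and 6 to 17 of the 32 G1/S genes. The lowest count of targets, 2 of 22, came without a scaling factor, where 6091 of 13961 genes passed in all. Using the primary tumours instead of the lines derived from the same mice left 3 of 22, where 3668 of 14161 genes passed. In both settings a smaller share of the targets than of all genes passed, so the count of targets depended on the scaling and on the libraries used. Against sgBcl2 MEFs all 22 targets passed as higher (median 3.17), where 36.3% of all genes did. In the same comparison 27 of 32 G1/S genes passed, 21 higher and 6 lower (median 1.03), where 81.3% of all genes passed and the median was -0.27.

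In MEFs, sgBcl2 against sgNT moved 1 of the 32 G1/S genes, Tfdp2, another E2F partner (-0.93, adjusted p = 0.00216 by limma), and 1 of the 22 targets, Rrm2, a ribonucleotide reductase subunit (-0.65, adjusted p = 0.0343), where 10.8% of all genes passed. Over the alternatives 1 to 3 G1/S genes and 0 to 2 targets passed. The count of targets was 0 at a threshold of 0.01, with all 10 MEF libraries and without the first sgBcl2 library of line 2. In sgNT against no sgRNA, 41.1% of all genes passed (20.9% lower), 15 of 32 G1/S genes did, 4 higher and 11 lower (median -0.14), and 18 of 22 targets did, 1 higher and 17 lower (median -0.62, where that of all genes was 0.01). The count of targets ranged from 3 to 19 over the alternatives. No gene of either list passed in both WT comparisons, between IgM classes or between tumours and lines, and the target medians in these were 1.04 (no sgRNA against WT), 0.39 (sgNT against WT), 0.04 (IgM-negative against IgM-positive) and -0.48 (tumours against lines). Some alternatives called genes of both lists, and not only in settings that called many genes in all. With all 10 MEF libraries in the fit, no sgRNA against WT had 9 targets and 3 G1/S genes passing (717 of 15158 genes). DESeq2 called 3 targets and 1 G1/S gene there (188 of 14546). For sgNT against WT these 2 alternatives called 0 of either list (68 of 15158 and 83 of 14560). Other settings with list calls had more calls in all. For no sgRNA against WT, 21 targets and 17 G1/S genes passed without WT 2 (4712 of 14806 genes in all), and 17 and 18 without WT 1 (8581 of 15566). For sgNT against WT, 15 of each list passed without WT 1 (8424 of 15768). For tumours against lines, 11 targets and 12 G1/S genes passed with the block by titles (3600 of 12719). Between IgM classes, DESeq2 called 2 G1/S genes and 0 targets (749 of 12386).

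The genes whose levels most resembled each D cyclin were listed by Pearson correlation of log2(CPM + 0.1) across the 20 libraries among 16483 genes. This is a description, since the libraries fall into few cell types. For Ccnd1 they were Spr, Fitm2 and Cd44 (each 0.96), for Ccnd2 they were Ctbs (0.99), Tcn2 (0.97) and Vsig10 (0.97), and for Ccnd3 they were Kcna5 (0.93), Slc52a3 (0.93) and Pttg1 (0.92). Cd44, an adhesion receptor, had mean levels of 658 CPM in MEFs, 163 CPM in lymphoma lines and 90.8 CPM in preB-ALL, the same order of groups as Ccnd1. Tcn2, which carries vitamin B12 in plasma, had 149, 1.65 and 44.3 CPM, the order of Ccnd2. Pttg1, the securin, had 12.1, 8.05 and 35.0 CPM, with preB-ALL highest as for Ccnd3.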

How the data were processed

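RNA libraries (Illumina TruSeq, polyadenylated RNA, no strand information) were sequenced, aligned to GRCm38 and counted per Entrez gene by the authors with Rsubread, who deposited 1 table of CPM values (reads scaled to the library total, not raw counts) for all 20 libraries. Dividing by the value of 1 read gave whole reads for 100% of the values (tolerance 0.01), so depth and low-count filters rest on recovered reads. Each column was mapped to its sample by title and description.

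CPM values were scaled by TMM (edgeR 4.0.16), filtered with filterByExpr and tested with limma 3.58.1 (lmFit, eBayes with trend) on log2(CPM + 0.1), using only the groups compared and all genes, with Benjamini-Hochberg adjustment and a threshold of 0.05. The study used limma with voom weights on counts, which was run here as an alternative because the deposited values are CPM. R 4.3.3, Python 3.11.15 and scipy 1.17.1 were used. The edgeR quasi-likelihood test on recovered reads called 1554 genes for sgBcl2 against sgNT, 6034 for sgNT against no sgRNA and 5560 for lymphoma lines against preB-ALL. The tests were checked on simulated data. Alternatives were DESeq2 1.42.0, limma-voom, other pseudocounts (0.5 and 1), RLE or no scaling, no filter, a threshold of 0.01, all 10 MEF libraries in one fit, replicate blocks and leaving out each library. The edgeR test and the restriction to IgM-positive lines were added after seeing the data. Same-numbered dCas9a-SAM KI/+ MEF libraries come from the same line by their labels (correlation of line differences 0.35 between sgBcl2 and sgNT, -0.05 between sgNT and no sgRNA). Nothing says that libraries of one line were separate cultures, so p-values may measure technical spread.

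Members and gene lists were chosen with earlier results of these data known. Named genes were the 10 members, the 3 list genes with the smallest adjusted p per direction in lymphoma lines against preB-ALL, list genes called in sgBcl2 against sgNT, and the 3 genes most like each D cyclin. Cdkn2d, Cdkn2a and Ighm were named after their values were seen. Gene lengths are unions of GENCODE exons, and promoters come from RefSeq (GRCm38.p6), with those of Ccnd1, Ccnd2 and Rb1 not analysed here.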

Additional observations from a re-analysis of the deposited data

Results flagged for a closer look

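Cdkn2b in line 15 stood out. Its 2.25 CPM (60 reads) was the highest of the 4 IgM-positive lines and of all 6 lymphoma lines, and the nearest of the others, line 16, had 0.114 CPM. On the log2(CPM + 0.1) scale, the gap between them took up 0.851 of the whole range in the former set, which is past the critical value of Dixon's test at the 5% level in both sets. Line 15 also had the highest sum of the 12 fibroblast markers among the lines, 89.6 CPM against 6.25 to 21.96 CPM in the other 5. In line 15 that sum held 49.6 CPM of Thy1, 28.3 CPM of Sparc and 2.47 CPM of the collagen gene Col1a1, and the part of these markers in the Cdkn2b value was not tested. In all, 30 sets of values were examined this way and chance alone marks about 1 in 20.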

How the results depend on the processing

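The main counts of the 10 genes passing were 2 for sgBcl2 against sgNT, 5 for sgNT against no sgRNA, 0 for both WT comparisons, 5 for lymphoma lines against preB-ALL, 0 for IgM classes, 0 for tumours against lines and 6 for lymphoma lines against sgBcl2 MEFs. For sgBcl2 against sgNT the count was 1 with limma-voom, 1 without scaling, 0 at a threshold of 0.01, 0 with all 10 MEF libraries in the fit and 0 to 1 without 1 library. For sgNT against no sgRNA it was 3 at 0.01, 0 with all 10 MEF libraries and 3 to 4 without 1 library. For no sgRNA against WT it was 1 with all 10 MEF libraries (Cdkn1b) and 0 to 8 without 1 library, and for sgNT against WT 0 to 7. For lymphoma lines against preB-ALL it was 2 at 0.01, 3 with tumours in place of their lines and 1 to 6 without 1 library. DESeq2 gave 1 for IgM classes (Ccnd2) and 1 for tumours against lines (Cdk6). The replicate block gave 2 and 4 genes in the first 2 comparisons, 0 against WT, and 5 (titles) or 0 (descriptions) for tumours; it changed no other call. The cause of these changes was not tested.

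Among the differences given with values, apart from those against WT given above, signs turned for Cdk4 in lymphoma lines against preB-ALL (-0.26 without scaling, and -0.14 to 0.27 without 1 library), Cdkn1b against sgBcl2 MEFs (-0.0792 with DESeq2 and -0.0837 with RLE), the Ccnd1 to Ccnd2 plus Ccnd3 ratio against sgBcl2 MEFs (-0.0341 to 0.68 without 1 library, line 19 giving the lowest) and the Cdk4 to Cdk6 ratio of sgBcl2 against sgNT (-0.43 to 0.018, sgNT 1 giving the highest). Other uncalled genes also changed sign, such as Cdkn2b in tumours against lines (-2.44 to 1.59). Over single genes, 419 of 491 values kept direction and side of the threshold, 55 lost a call, 12 gained one and 5 reversed. Of all genes, sgBcl2 against sgNT called 1592, but 156 without sgNT 1, 198 without sgNT 2, 960 without the first sgBcl2 library of line 1, 64 with all 10 MEF libraries and 319 at 0.01; without scaling 38.4% of its calls were higher against 60.9%. Lymphoma lines against preB-ALL called 6059, but 3177 without preB-ALL 2, 3668 with tumours and 3790 at 0.01; without scaling 27.8% were higher against 48.1%, as the median of all genes moved from -0.07 to -0.42. For sgNT against no sgRNA, 6029 became 3498 at 0.01 and 901 with all 10 MEF libraries.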

Other observations

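Cdkn2a, which lies beside Cdkn2b and encodes p16INK4A and p19ARF, was examined after its values were seen. It was at 276 CPM in line 15 and 329 CPM in tumour 20, and at 0 to 5.43 CPM in the other 5 lymphoma lines and 1.10 CPM in tumour 21. These 2 libraries are also those with the most Cdkn2b among the lymphoma lines and tumours (2.25 and 1.18 CPM). The sample titles join them as tumour and line of the same mouse, whereas the descriptions join tumour 20 with line 14. Line 15 and tumour 20 also had the higher sums of the fibroblast markers, 89.6 and 221 CPM. The other lines had at most 21.96 CPM and tumour 21 had 26.4 CPM, and the part of these markers in the values was not tested. Lines 14 and 15 had Ccnd3 at 171 and 342 CPM, tumours 20 and 21 at 183 and 88.7 CPM. MEFs had 117 to 282 CPM of Cdkn2a apart from WT MEF 2 (4.56 CPM), and preB-ALL had 10.7 and 9.86 CPM.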
